A study of Macaca fascicularis with 24 samples.

Results

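The 39 genes described here encode proteins that copy DNA or divide the cell: the 6 subunits of the MCM helicase, 4 genes of DNA synthesis, cyclin E2 and 28 genes of mitosis. They were chosen by name, as a list of proliferation genes, and each was read through every probe set (the group of short probes that reads 1 transcript) whose annotated gene symbol is on the list. All 39 genes were found, on 66 of the 22215 probe sets that are not controls, among 11963 genes with a symbol. For 16 of them the array holds more than 1 probe set, and the probe set with the highest mean stands for the gene below unless another is named. One further probe set carries CENPA beside another symbol and was not named.

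Biotin-labelled RNA of cynomolgus macaque (Macaca fascicularis) thoracic aorta was read on a human expression array. The groups were old males (OM, mean age 20.0 years, 6 samples) and young males (YM, 6.6 years, 5 samples), and old females (OF, 21.2 years, 5 samples) and young females (YF, 7.2 years, 5 samples). The labels give no treatment and no age of a single animal. Samples are named here by group and number, for example OF3 for old female number 3. The study asked how aortic transcripts differ with age in each sex.

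Before a cell can copy its DNA, the MCM2 to MCM7 ring is loaded on replication origins in G1, a step called licensing, and the ring later unwinds the helix in S phase. The genes of licensing and DNA synthesis are switched on by E2F factors late in G1. The mitosis genes peak later, in G2 and M phase, when FOXM1 and cyclin B with CDK1 drive the cell into division. In a healthy adult artery most smooth muscle, endothelial and adventitial cells are out of the cycle, so transcripts of these genes come from few cells or sit at low levels. A tissue RNA level cannot tell fewer cycling cells from less RNA per cell.

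Some arrays stood apart or resembled each other closely. In 3 pairs of arrays (OF1 with OF4, YM3 with YM4, YF3 with YF4) the deviations from the other arrays correlated at 0.792 or more, against at most 0.571 in other pairs. The SD of the log2 difference was up to 0.383 within these pairs, against at least 0.427 in others. Single genes could differ within a pair, as TOP2A did, at 150.5 on YM3 and 306.7 on YM4 as deposited. Each pair was averaged and counted as 1 sample under the lower number, which left 21 samples from 24 arrays. On 7 arrays, in the 6 samples OM2, OM4, YM1, OF2, OF6 and YF3, the median correlation with the other arrays was 0.809 to 0.828, against 0.878 to 0.935 on the rest. These arrays also had higher hybridisation controls, 12.8 to 14.3 against 11.2 to 12.1 (log2), and more signal from the 3′ than from the 5′ end of actin, at a log2 ratio of 0.785 to 1.73 against -0.249 to 1.15. The sample labelled YM1 had XIST at 10.3, where the remaining young males had 6.1 to 7.1 and all females 11.2 to 13.1, while RPS4Y1 was at 12.0 there, within the male range of 12.0 to 13.0. Its label was kept, and the male changes of MCM7, CCNA2, CCNB2, CENPA and CENPE, in which it was the highest young male, are given without it too. It was also the highest young male in MKI67, BUB1, ZWINT, AURKA, UBE2C, CDKN3, FOXM1, PLK1, PTTG1 and BIRC5. Without YM1 the male changes of MKI67, BUB1, ZWINT and AURKA turned sign, to 0.13, 0.13, 0.06 and 0.002. That of UBE2C was then -0.09. Smooth muscle markers were bright everywhere, with all 8 of 8 above the background limit used below. The labels do not say that replicates are separate animals, so p-values measure only the spread between these samples.

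Most of the proliferation genes were not measured above background in this tissue. Levels are log2(intensity + 16) after quantile normalisation, and a level of 1 probe set cannot be set against that of another as an amount of RNA, since probes differ in brightness and human probes may bind monkey RNA poorly. Each gene was therefore set against a background limit, the 95th percentile of 58 probe sets of genes that belong to other tissues (retina, testis, pancreas, liver and others), at 8.64. Means over the 21 samples lay above it for 3 of the 39 genes, or 7.69%, against 38.0% of all 11963 genes. The 3 genes were MCM6, RRM1, the large subunit of ribonucleotide reductase, and PTTG1, securin, which keeps sister chromatids from being separated before anaphase. The count was 3 in each of the groups OM, YM, OF and YF when the limit was applied to group means.

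The number of genes above background moved with the limit. At the 90th percentile of the same probe sets, 8.05, 9 genes (23.1%, against 49.5% of all genes) lay above it, and MCM2, MCM7, PCNA, RRM2, CCNA2 and UBE2C joined the 3. At the 95th percentile of 15 probe sets of Y-linked genes on female samples, 7.33, there were 14 genes (35.9%, against 62.9% of all genes), with TYMS, CDK1, CDKN3, ZWINT and MKI67 added. At this lowest limit all 4 DNA synthesis genes and 3 of 6 licensing genes were above, against 7 of 28 mitosis genes. The filter used for testing, a mean of at least 7.59, was passed by 4 of 4 DNA synthesis genes, 3 of 6 licensing genes and 6 of 28 mitosis genes, 13 genes in all. Means ran over 7.99 to 9.74 in the DNA synthesis genes, 6.41 to 9.83 in the licensing genes and 4.85 to 9.47 in the mitosis genes.

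**Figure D1:**
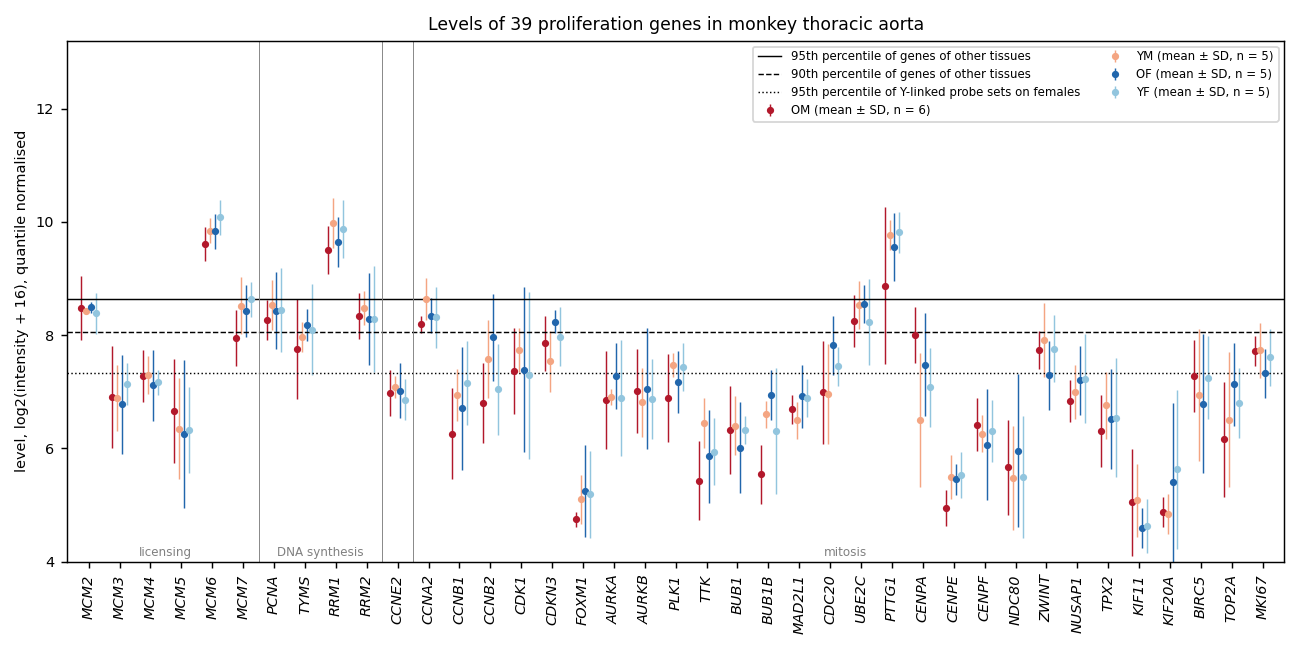
Mean level of each of the 39 genes in OM, YM, OF and YF (points, with bars of 1 SD over 6, 5, 5 and 5 samples) on a log2 scale of normalised intensity, in the order licensing, DNA synthesis, CCNE2 and mitosis. The horizontal lines are the background limits at 8.64, 8.05 and 7.33, and MCM6, RRM1 and PTTG1 are the 3 genes whose overall means lie above the highest of them.

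No proliferation gene differed with age past the threshold of an adjusted p of 0.05 in limma's fit. Of the 15 probe sets of these genes that passed the filter, 0 were called in males, against 0.018% of all 11108 probe sets tested (2 probe sets). For females, for the average of the sexes and for the difference between their age effects, 0 of the 15 were called, against 0.0% of all probe sets tested. The smallest adjusted p of limma among the 15 was 0.985, and among all 66 probe sets of these genes, in the fit without the filter, it was 0.94. At an unadjusted p under 0.05, 1 of the 15 passed in males (3.36% of all tested), 0 in females (2.84%), 0 in the average (4.38%) and 0 in the difference (1.97%). Of all 66 probe sets 5 passed in males (3.93% of all 22215), 0 in females (4.01%), 2 in the average (5.08%) and 3 in the difference (2.88%).

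Counted by gene, 1 of the 39 was higher and 3 were lower in old males at an unadjusted p under 0.05, against 1.84% and 2.01% of all genes. In old females 0 were higher and 0 were lower, against 1.91% and 1.85% of all genes. In both sexes averaged 1 was higher and 0 were lower, against 2.53% and 2.72%, and in the difference 0 had a higher and 2 a lower age effect in males, against 1.21% and 1.2%. The changes below are therefore descriptions of genes with small unadjusted p, most of them dim, and none is a call. A change is the log2 difference of old minus young on the log2(intensity + 16) scale with its standard error, and the pseudocount of 16 understates changes of dim genes.

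Among the licensing genes no common direction appeared. MCM6, the helicase gene above the highest background limit, had 9.08, 9.70 and 9.92 in old males (lowest, median and highest of 6), against 9.52, 9.83, 10.13, 9.91 and 9.83 in young males. Old females had 9.81, 9.55, 10.35, 9.74 and 9.73, against 9.98, 10.57, 10.15, 9.74 and 9.96 in young females. The ranges overlapped in both sexes, and the change was -0.24 ± 0.19 in males and -0.25 ± 0.20 in females. This was the licensing gene with the smallest p in females (unadjusted p = 0.226, adjusted p 0.9996 by limma).

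MCM7 also had a lower mean in both old groups. It had 7.05, 8.15 and 8.43 in old males (lowest, median, highest), against 9.28, 8.67, 7.92, 8.51 and 8.23 in young males. In old females it had 8.68, 8.45, 8.70, 7.62 and 8.66, against 8.60, 8.61, 9.15, 8.43 and 8.35 in young females. The lowest old male was OM2 and the highest young male YM1, both among the samples that stood apart. The change was -0.57 ± 0.28 in males (unadjusted p = 0.0489, adjusted p 0.9999 by limma) and -0.21 ± 0.29 in females. Without the 6 samples that stood apart the male change was -0.21 (unadjusted p 0.416), and without YM1 alone it was -0.39. A dimmer second MCM7 probe set, below the filter, had a change of 0.19 ± 0.46 in males.

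MCM2 was nearly flat. Old males had 7.46, 8.64 and 9.05 (lowest, median, highest), against 8.40, 8.36, 8.48, 8.48 and 8.38 in young males, who lay closer together (SD 0.05) than old males (SD 0.56). Old females had 8.40, 8.65, 8.46, 8.49 and 8.44, against 8.72, 8.22, 8.44, 7.85 and 8.70 in young females. Its changes were 0.06 ± 0.23 in males and 0.10 ± 0.24 in females, both smaller than their errors.

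MCM3, MCM4 and MCM5 were below the filter. MCM3 had 5.24, 7.13 and 7.82 in old males (lowest, median, highest), against 6.28, 7.41, 6.35, 7.52 and 6.89 in young males. It had 7.24, 5.30, 7.58, 6.74 and 7.02 in old females, against 6.79, 6.68, 7.37, 7.33 and 7.51 in young females. The lowest values of both old groups were in OM4 and OF2, which stood apart, and the changes were 0.02 ± 0.43 in males and -0.36 ± 0.45 in females. The female MCM3 change had the opposite sign, at 0.11, without the samples that stood apart. MCM4 had 6.76, 7.16 and 7.90 in old males (lowest, median, highest), against 7.46, 7.33, 7.15, 7.70 and 6.81 in young males. It had 7.15, 6.06, 7.53, 7.62 and 7.22 in old females, against 7.00, 7.34, 6.88, 7.21 and 7.39 in young females. The MCM4 groups overlapped, with changes of -0.01 ± 0.30 and -0.05 ± 0.31. The other MCM4 probe sets, with means of 7.06, 6.84 and 4.58 against 7.22, had higher means in both old groups. Their changes were 0.54 ± 0.34, 0.27 ± 0.43 and 0.20 ± 0.15 in males, and 0.03 ± 0.35, 0.04 ± 0.45 and 0.04 ± 0.15 in females. MCM5 had 5.50, 6.97 and 7.67 in old males (lowest, median, highest), against 5.17, 6.31, 5.91, 6.85 and 7.50 in young males. It had 6.04, 4.64, 7.09, 5.51 and 7.97 in old females, against 7.08, 5.32, 7.06, 5.92 and 6.26 in young females. The MCM5 groups overlapped throughout, and the changes were 0.30 ± 0.56 in males and -0.08 ± 0.58 in females.

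The DNA synthesis genes had lower means in old males for all 4 genes and in old females for 2 of 4. PCNA, the sliding clamp of DNA polymerase, had 7.86, 8.21 and 8.85 in old males (lowest, median, highest), against 7.89, 8.80, 8.83, 8.26 and 8.90 in young males. It had 8.04, 8.83, 9.09, 8.77 and 7.44 in old females, against 8.73, 7.21, 8.78, 8.39 and 9.13 in young females. The groups covered the same span, and the changes were -0.27 ± 0.33 in males and -0.01 ± 0.34 in females. RRM1 had 8.74, 9.62 and 9.97 in old males (lowest, median, highest), against 9.30, 10.36, 10.41, 9.99 and 9.86 in young males. It had 9.94, 9.62, 10.15, 9.01 and 9.50 in old females, against 9.39, 9.46, 10.67, 9.86 and 9.98 in young females. Its changes were -0.48 ± 0.27 in males and -0.23 ± 0.28 in females. Over both sexes the change was -0.36 ± 0.19 (unadjusted p = 0.0807, adjusted p 0.985 by limma), and the ranges overlapped in each sex. Without the samples that stood apart the RRM1 changes were -0.52 in males (unadjusted p 0.0422, adjusted p 0.893 by limma) and 0.03 in females. Without YM1 alone the male change was -0.65 (unadjusted p 0.0237 by limma). A second RRM1 probe set, also past the filter, had -0.30 ± 0.26 in males and -0.12 ± 0.27 in females. TYMS, which makes the thymidine nucleotide for DNA, had changes of -0.21 ± 0.38 in males and 0.08 ± 0.39 in females. RRM2, the small subunit of ribonucleotide reductase, had changes of -0.14 ± 0.38 in males and 0.002 ± 0.39 in females. CCNE2, cyclin E2 of the G1 to S transition, lay below the filter with changes of -0.11 ± 0.28 in males and 0.16 ± 0.29 in females.

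**Figure D2:**
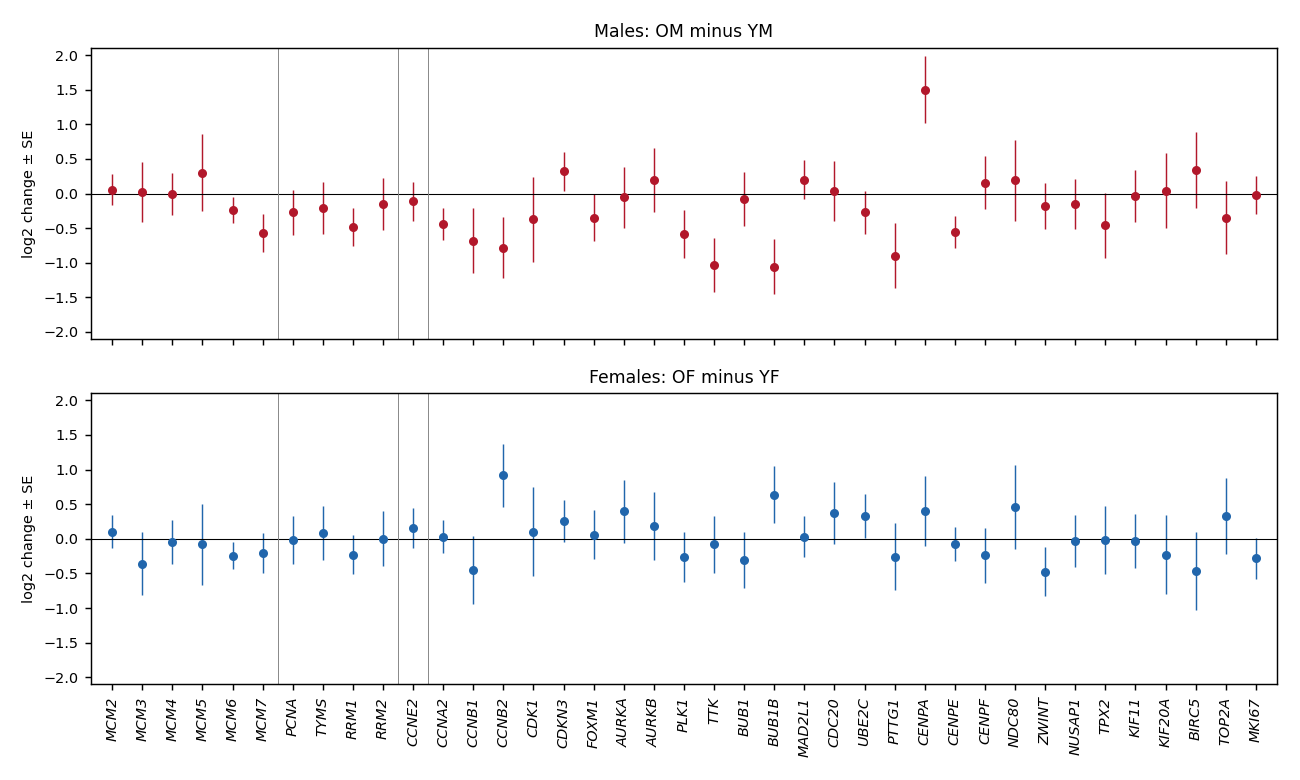
Log2 change of each gene with age (points, with bars of 1 standard error from limma), old minus young males in the upper panel and old minus young females in the lower, in the order licensing, DNA synthesis, CCNE2 and mitosis. In males CENPA stands at 1.50 above the line while BUB1B and TTK stand at -1.06 and -1.03, and in females CCNB2 is highest at 0.92.

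Of the mitosis genes, MKI67, whose product Ki-67 coats mitotic chromosomes and is used as a stain for cycling cells, was just inside the filter. It had 7.31, 7.70 and 8.06 in old males (lowest, median, highest), against 8.36, 7.05, 7.65, 7.64 and 7.99 in young males. It had 7.38, 7.57, 6.56, 7.50 and 7.62 in old females, against 7.47, 7.10, 8.36, 7.27 and 7.85 in young females. The groups overlapped, with changes of -0.02 ± 0.28 in males and -0.28 ± 0.29 in females. The 3 other MKI67 probe sets had male changes of -0.56 ± 0.46, -0.80 ± 0.56 and 0.21 ± 0.33.

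TOP2A, the topoisomerase that untangles sister chromatids, was below the filter. It had 4.87, 6.02 and 7.55 in old males (lowest, median, highest), against 5.49, 7.10, 7.89, 5.05 and 7.01 in young males. It had 7.17, 8.04, 6.64, 6.21 and 7.59 in old females, against 6.90, 6.74, 7.36, 5.79 and 7.21 in young females. The male samples spread widely, with an SD of 1.01 in old and 1.19 in young males, and the changes were -0.35 ± 0.53 in males and 0.33 ± 0.55 in females. A dimmer second TOP2A probe set, at a mean of 5.43, had changes of -0.77 ± 0.60 in males and -0.10 ± 0.63 in females. Its highest samples were OF3 at 7.78 and YF3 at 7.61, which had 6.64 and 7.36 at the brighter probe set. After group means had been subtracted, tested genes were ranked by how closely they followed the brighter TOP2A probe set over the 21 samples. The closest were ACTL6A (Pearson r 0.72), TBCC (0.71), RFK (0.70), ATP13A1 (0.69) and WDR6 (0.68). They were the 5 highest of the 6952 genes that passed the filter, which leaves out 26 of the 39 proliferation genes.

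Cyclin B and its kinase were below the filter as well. CCNB1 had 4.99, 6.33 and 7.12 in old males (lowest, median, highest), against 7.08, 7.43, 6.94, 6.18 and 7.08 in young males. It had 6.55, 6.67, 7.66, 5.01 and 7.66 in old females, against 6.76, 6.59, 8.40, 6.77 and 7.28 in young females. Means were lower in both old groups, with changes of -0.68 ± 0.47 in males and -0.45 ± 0.49 in females, and the groups overlapped in both sexes. CDK1 had 6.07, 7.49 and 8.40 in old males (lowest, median, highest), against 7.95, 7.87, 8.02, 7.06 and 7.79 in young males. It had 7.77, 5.92, 8.90, 5.80 and 8.56 in old females, against 5.84, 7.97, 9.28, 7.50 and 5.85 in young females. Each female group held 2 samples under 6 and 3 samples at 7.50 or more, which gave an SD of 1.46 in old and 1.47 in young females, and the changes were -0.37 ± 0.61 in males and 0.10 ± 0.64 in females.

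CCNB2 and BUB1B had the largest differences between the age changes of the sexes among the 39 genes. CCNB2 had 5.39, 7.00 and 7.38 in old males (lowest, median, highest), against 8.58, 7.31, 7.78, 6.70 and 7.54 in young males. It had 6.87, 7.52, 8.80, 8.26 and 8.35 in old females, against 6.32, 7.70, 8.09, 6.75 and 6.36 in young females. Old males lay mostly below young males and old females mostly above young females, with overlap in both. The change was -0.78 ± 0.44 in males and 0.92 ± 0.46 in females (unadjusted p = 0.0566). The difference of the 2 effects was -1.70 ± 0.63 (unadjusted p = 0.0134, adjusted p 0.9999 by limma). Without the samples that stood apart the changes were -0.24 in males, 1.20 in females (unadjusted p 0.0157, adjusted p 0.885 by limma) and -1.44 for the difference. Without YM1 alone the male change was -0.53.

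BUB1B, a spindle checkpoint kinase, was the only one of the 39 genes whose old and young males did not overlap. It had 4.86, 5.52 and 6.31 in old males (lowest, median, highest), against 6.71, 6.46, 6.98, 6.44 and 6.41 in young males. It had 6.61, 6.59, 7.57, 6.69 and 7.26 in old females, against 5.42, 7.37, 7.63, 5.76 and 5.34 in young females. Every old male was below every young male, and the closest were OM3 at 6.31 and YM6 at 6.41. Among all genes, 0.309% had old males wholly below and 0.301% wholly above young males, and in females, where 0 of the 39 genes were separate, the shares were 0.184% below and 0.276% above. The change was -1.06 ± 0.40 in males (unadjusted p = 0.0138, adjusted p 0.99995 by limma) and 0.64 ± 0.41 in females, and the difference of the effects was -1.70 ± 0.57 (unadjusted p = 0.00713, adjusted p 0.9999). Without the samples that stood apart the changes were -0.88 in males, 0.98 in females and -1.86 for the difference. The gene lies well under every background limit, at a mean of 6.31.

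CENPA, the histone H3 variant of centromeres, was the one gene with a higher mean in old males at a small p. It had 7.53, 7.88 and 8.61 in old males (lowest, median, highest), against 8.41, 5.87, 6.80, 6.08 and 5.38 in young males. It had 6.40, 8.35, 7.15, 7.02 and 8.49 in old females, against 6.02, 6.80, 7.77, 7.24 and 7.59 in young females. All old males lay above 4 of the 5 young males, and the fifth, YM1, lay among the old males. The change was 1.50 ± 0.48 in males (unadjusted p = 0.00528, adjusted p 0.99995 by limma), 0.40 ± 0.51 in females and 0.95 ± 0.35 in both sexes averaged (unadjusted p = 0.0127, adjusted p 0.94). Without the samples that stood apart, YM1 among them, the change was 1.67 in males (unadjusted p 0.000355, adjusted p 0.387) and -0.06 in females, and without YM1 alone it was 1.97 in males. The probe set is below the filter, at a mean of 7.30.

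TTK and CENPE had lower means in old males. TTK, the checkpoint kinase also called MPS1, had 4.57, 5.37 and 6.45 in old males (lowest, median, highest), against 6.86, 6.43, 6.90, 6.20 and 5.87 in young males. It had 6.18, 4.92, 6.65, 5.05 and 6.51 in old females, against 5.52, 5.13, 6.29, 6.20 and 6.57 in young females. Old males overlapped with young males in their upper part, and the change was -1.03 ± 0.39 in males (unadjusted p = 0.0149) and -0.08 ± 0.41 in females. CENPE, the kinetochore motor that carries chromosomes to the spindle equator, had 4.51, 5.07 and 5.21 in old males (lowest, median, highest), against 5.93, 5.21, 5.67, 5.69 and 4.99 in young males. It had 5.22, 5.37, 5.28, 5.90 and 5.50 in old females, against 5.60, 5.56, 5.95, 4.86 and 5.68 in young females. Its change was -0.55 ± 0.23 in males (unadjusted p = 0.0278) and -0.08 ± 0.24 in females. Without the samples that stood apart the male changes were -0.58 for TTK and -0.25 for CENPE, each over 1.5 times smaller, and without YM1 alone that of CENPE was -0.44 (unadjusted p 0.0829).

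**Figure D3:**
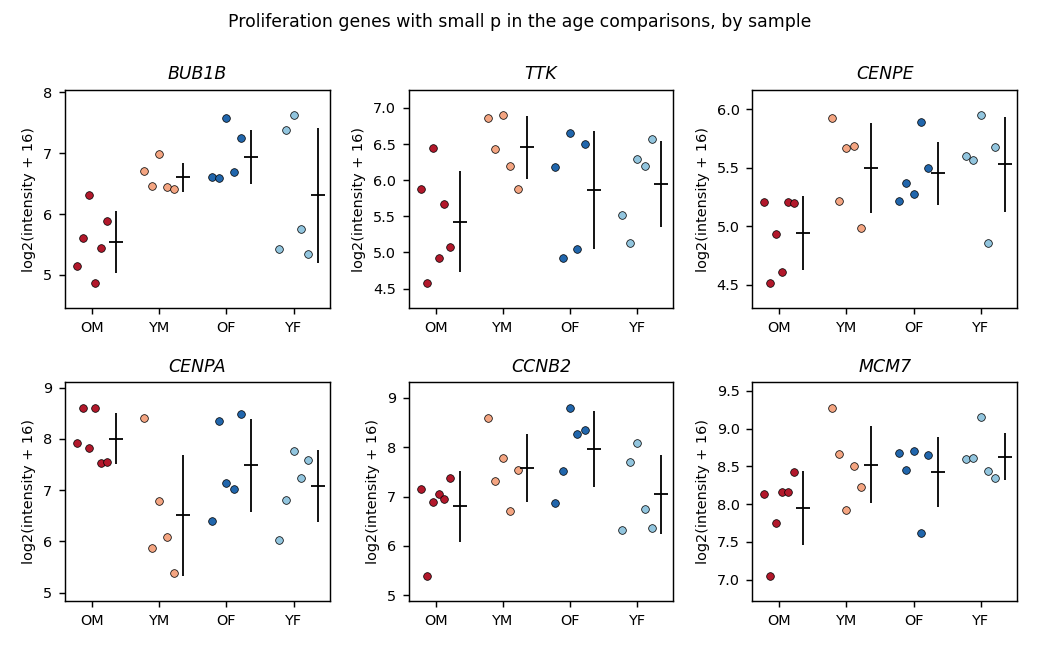
Levels in every sample (points) of BUB1B, TTK, CENPE, CENPA, CCNB2 and MCM7 in OM, YM, OF and YF, with the mean and 1 SD beside each group, on a log2 scale of normalised intensity. In males BUB1B has no old sample above 6.31 and no young sample below 6.41, and for CENPA the young male at 8.41 is YM1.

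The remaining mitosis genes are given by role. Of the cyclins and regulators, CCNA2, the cyclin of S phase and G2, had 7.94, 8.18 and 8.36 in old males (lowest, median, highest), against 9.13, 8.50, 8.91, 8.24 and 8.39 in young males. It had 8.14, 8.20, 8.83, 8.07 and 8.49 in old females, against 8.20, 7.83, 9.23, 8.06 and 8.25 in young females. Only the lowest young male, at 8.24, lay within the range of old males, and the changes were -0.44 ± 0.23 in males (unadjusted p = 0.0681, adjusted p 0.9999 by limma) and 0.03 ± 0.24 in females. The difference of the CCNA2 effects was -0.48 ± 0.33 (unadjusted p = 0.170, adjusted p 0.9999 by limma). The CCNA2 changes were -0.25 in males and 0.26 in females without the samples that stood apart, and without YM1 alone the male change was -0.32. A dimmer second CCNA2 probe set had a change of -0.03 ± 0.22 in males. CDKN3, a phosphatase of CDKs, had changes of 0.32 ± 0.29 in males and 0.26 ± 0.30 in females. FOXM1, a transcription factor of G2 and M phase genes, had changes of -0.35 ± 0.34 and 0.06 ± 0.35. Neither CDKN3 nor FOXM1 had a small p in either sex.

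Among the mitotic kinases and checkpoint proteins, AURKA of the spindle poles had changes of -0.05 ± 0.44 in males and 0.40 ± 0.46 in females. AURKB of the chromosomal passenger complex had 0.20 ± 0.47 and 0.18 ± 0.49, and PLK1, which acts from mitotic entry to cytokinesis, had -0.58 ± 0.35 and -0.26 ± 0.36. The PLK1 changes were -0.15 and -0.04 without the samples that stood apart, and its lowest sample was OM2, at 5.48. At these brightest probe sets none of the 3 kinases had a small p in either sex. The checkpoint kinase BUB1 had changes of -0.08 ± 0.39 and -0.31 ± 0.41, and MAD2L1, which holds CDC20 inactive in the same checkpoint, had 0.20 ± 0.28 and 0.03 ± 0.30. A dimmer BUB1 probe set had 0.92 ± 0.47 in males and -0.68 ± 0.49 in females. Its difference of the effects was 1.59 ± 0.67 (unadjusted p = 0.0271, adjusted p 0.9999 by limma), and the probe sets of BUB1 did not share a sign in males. A second, dimmer AURKA probe set had -0.84 ± 0.34 in males (unadjusted p = 0.0213, adjusted p 0.99995 by limma) and an unadjusted p of 0.0125 in both sexes averaged, and the 3 probe sets of this gene did not share a sign. The anaphase genes were split by level, with UBE2C and PTTG1 inside the filter and CDC20 outside it. CDC20, which activates the anaphase-promoting complex, had changes of 0.04 ± 0.43 in males and 0.37 ± 0.45 in females. UBE2C, the ubiquitin-conjugating enzyme of that complex, had 7.76, 8.17 and 9.01 in old males (lowest, median, highest), against 9.24, 8.43, 8.51, 8.29 and 8.16 in young males. It had 8.07, 8.36, 8.80, 8.71 and 8.83 in old females, against 8.07, 8.59, 9.26, 8.05 and 7.18 in young females. The UBE2C groups overlapped, with changes of -0.27 ± 0.31 in males and 0.33 ± 0.32 in females. PTTG1 had changes of -0.90 ± 0.47 and -0.26 ± 0.49, and in old males its SD of 1.38 came with 1 sample, OM2, at 6.12 where the others had 8.81 to 9.63. The PTTG1 changes were -0.10 in males and 0.05 in females when the samples that stood apart were left out.

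Of the kinetochore and spindle genes beside CENPA and CENPE, only ZWINT passed the filter. ZWINT, a kinetochore scaffold, had 7.36, 7.63 and 8.19 in old males (lowest, median, highest), against 8.87, 7.13, 8.16, 7.89 and 7.54 in young males. It had 7.47, 8.02, 7.45, 6.37 and 7.14 in old females, against 6.75, 8.29, 8.08, 7.82 and 7.88 in young females. Most young females lay above most old ones, with YF1 and OF2 as the exceptions, and the change was -0.48 ± 0.35 in females (unadjusted p = 0.189, adjusted p 0.9996 by limma) and -0.18 ± 0.34 in males. CENPF, a large protein of the outer kinetochore, had changes of 0.16 ± 0.38 in males and -0.24 ± 0.40 in females, and NDC80, which binds microtubules at the kinetochore, had 0.19 ± 0.58 and 0.46 ± 0.61. NUSAP1 and TPX2, which build the spindle around chromosomes, had changes of -0.15 ± 0.36 and -0.46 ± 0.47 in males and -0.03 ± 0.38 and -0.02 ± 0.49 in females. None of these 4 genes had a small p in either sex. The spindle kinesin KIF11 had a mean of 4.85, with changes of -0.04 ± 0.37 in males and -0.04 ± 0.39 in females. With the samples that stood apart left out, KIF11 had -0.78 in males (unadjusted p 0.00980, adjusted p 0.767 by limma), 0.08 in females and -0.85 for the difference of the effects (unadjusted p 0.0437). KIF20A, a kinesin of the dividing cell's midzone, had changes of 0.04 ± 0.54 and -0.23 ± 0.57, and BIRC5 (survivin), partner of AURKB, had 0.34 ± 0.54 and -0.46 ± 0.57. Of the 16 genes with several probe sets, 10 had probe sets of both signs in males and 8 in females.

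Licensing and mitosis genes are set side by side as counts and medians. In old males 3 of 6 licensing genes and 19 of 28 mitosis genes had the lower mean, with median changes of 0.00 and -0.17. In old females 5 of 6 licensing genes and 14 of 28 mitosis genes did, with medians of -0.14 and 0.00. With every probe set of these genes counted, the licensing and mitosis medians were 0.06 and -0.18 in males and 0.03 and -0.03 in females. The DNA synthesis genes had medians of -0.24 in males and -0.01 in females. Over all 39 genes the lower mean was in old males for 27, where 49.8% of all genes were lower, and in old females for 21, where 50.3% were, with medians of -0.15 and -0.02 beside medians of all genes at 0.00 in both. Taken as males minus females, the age effects had a median difference of 0.03 in licensing genes, -0.26 in DNA synthesis genes and -0.30 in mitosis genes. No test was made of these lists. Of the 9 male changes of at least 0.5 in size, 6 were over 1.5 times smaller without the samples that stood apart. The median level of 8 adipocyte markers, 4 of which were above the background limit of 8.64 on average, also differed between male samples, at 7.38 to 11.1 in old and 6.38 to 10.6 in young males. All old males but OM3 had a higher deviation of these markers, 0.59 to 2.08, than all young males but YM1, -1.83 to -0.66. Their part in the male changes was not tested.

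The female count rested on a few samples. Without OF2 it was 13 of 39, and without YF3 it was also 13, against 50.3% and 49.3% of all genes lower in the same settings. Without all 6 samples that stood apart it was 8 of 39, against 48.8% of all genes, and the female medians were then 0.07 for licensing, 0.34 for DNA synthesis and 0.25 for mitosis genes. The male count was 28 of 39 without these samples, against 49.5% of all genes, and ran over 25 to 28 when 1 sample at a time was left out.

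Some samples stood out over many of the 39 genes, whatever their age group. YF3 was the highest of the 21 samples in 14 of the 39 genes (35.9%), where it was the highest in 7.26% of all genes, and it was the lowest in 0. With median-centred arrays in place of quantile normalisation it was the highest in 7 genes, against 3.79% of all genes. Its 14 genes included 11 of the 28 mitosis genes and 3 of the 4 DNA synthesis genes, but 0 of the 6 licensing genes. OF3 was the highest in 5 genes (12.8%), all of mitosis, against 6.40% of all genes, and the lowest in 1, MKI67, at 6.56. At the other, dimmer MKI67 probe sets OF3 was not the lowest sample. At 1 of them it had 8.43, with only YF3 (9.45) and OF6 (8.54) above it, and at the rest it lay below the old female mean. With median-centred arrays OF3 was the highest in 10 genes, against 15.3% of all genes, and with values as deposited in 1, against 5.09%. At the other end OM2 was the lowest in 10 genes (25.6%, against 9.99% of all genes) and OF2 in 9 (23.1%, against 8.48%). The median deviation of the 39 genes from their means was 0.74 in YF3, 0.46 in OF3 and 0.23 in OF6, and it was lowest in YF5, at -0.26, and OM2, at -0.22.

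**Figure D4:**
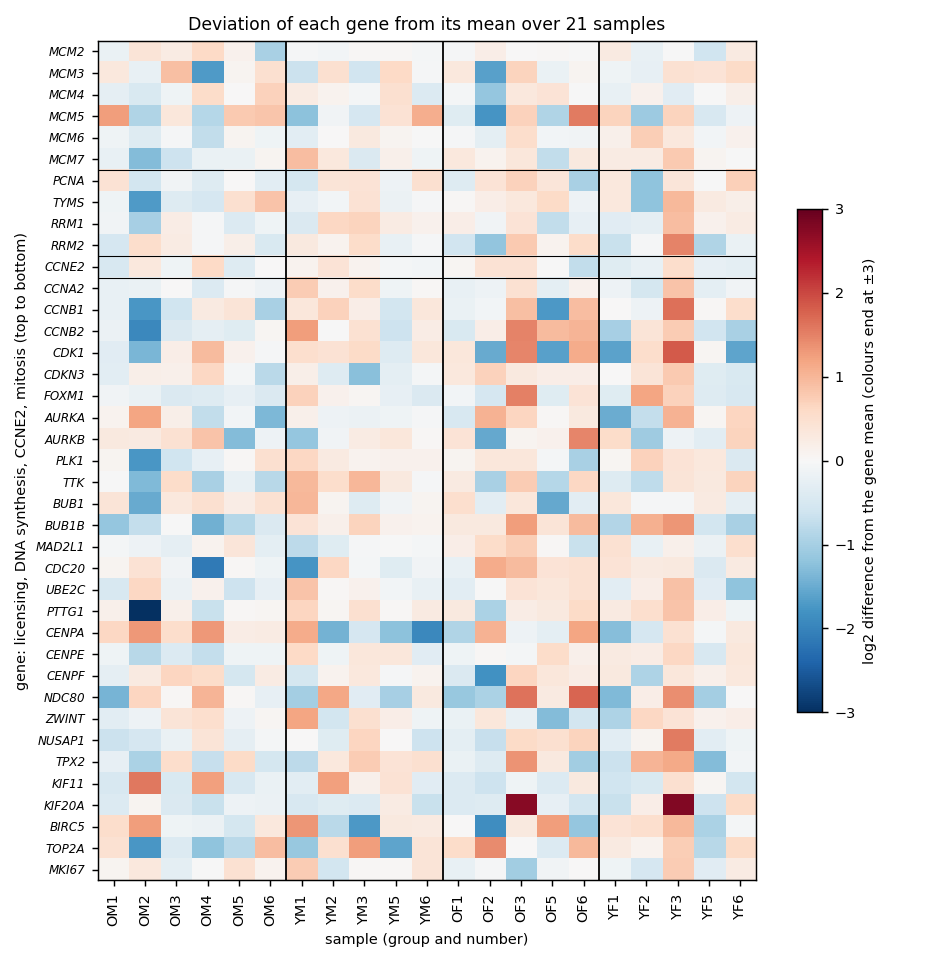
Deviation of each gene (rows) from its mean over the 21 samples (columns, in the order OM, YM, OF, YF) in log2 units, red above and blue below the mean, with colours ending at 3. YF3 is red in nearly every row from the DNA synthesis genes down, OF3 is red in many mitosis genes, and the column of OM2 holds the deepest blue, for PTTG1.

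KIF20A was high in 2 samples and low in all others. It had 7.91 in OF3 and 7.95 in YF3, while the other 19 samples lay between 4.50 and 5.75. In the intensities as deposited, this was 172.9 on array OF3, 326.1 on YF3 and 257.0 on YF4, against 4.7 to 34.2 on the other 21 arrays. NUSAP1 had 8.61 in YF3 and 7.62 in OF3, against 6.36 to 7.73 elsewhere, and CDK1 had 9.28 in YF3 and 8.90 in OF3, the 2 highest of all. CCNB1 was highest in YF3, at 8.40, with OF3 and OF6 next at 7.66 each.

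The same 2 samples were on top in ASPM and PRC1, mitosis genes outside the list that were chosen after their values were seen. ASPM, a spindle pole protein, had 6.74 in OF3 and 6.23 in YF3, against 4.31 to 5.02 elsewhere, and PRC1, which bundles midzone microtubules, had 9.17 and 9.00, against 4.95 to 8.15. Of 39 further mitosis genes, YF3 was the highest in 12 and OF3 in 7, and of 38 further replication genes in 4 and 5. YF3 is among the samples that stood apart, and OF3 is not. The OF3 array had an actin log2 ratio of 1.15, the highest outside the arrays that stood apart, and the lowest median intensity of all, 144.3. Its median correlation was 0.880, near the lowest outside those arrays, 0.878. Without the other 5 samples that stood apart YF3 was the highest of 16 samples in 17 of the 39 proliferation genes, where it was highest in 17.4% of all genes.

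**Figure D5:**
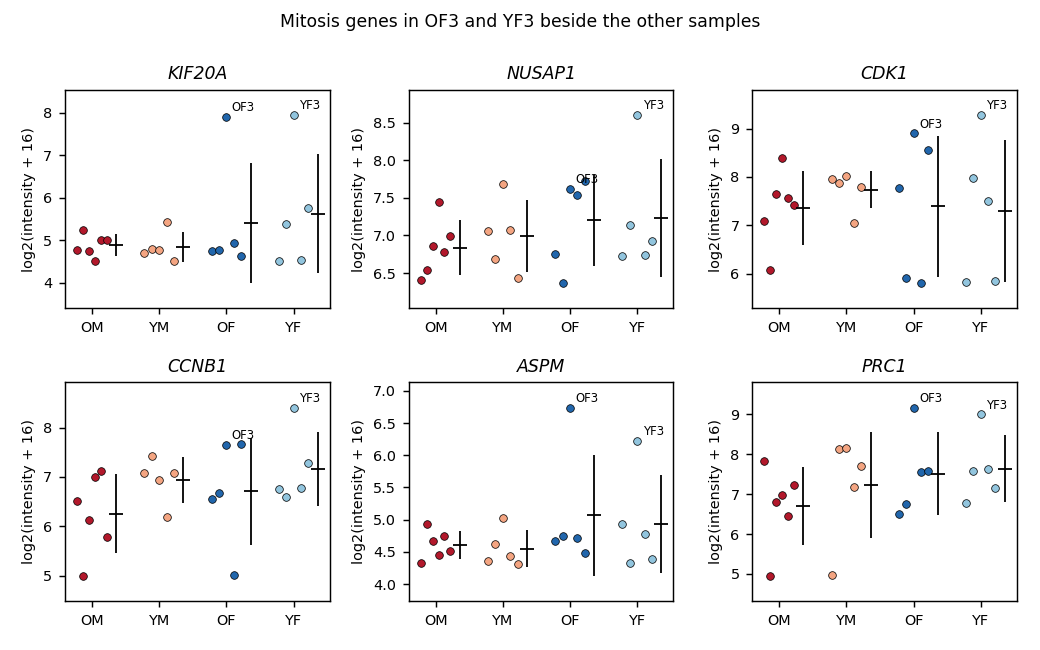
Levels in every sample (points) of KIF20A, NUSAP1, CDK1, CCNB1, ASPM and PRC1 in OM, YM, OF and YF, with the mean and 1 SD beside each group, on a log2 scale of normalised intensity. OF3 and YF3 are marked, and for KIF20A, ASPM and PRC1 they lie above all other samples.

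Markers of cell types also differed in these samples. The median deviation of 8 smooth muscle markers was -0.81 in YF3, -0.41 in OF3 and -1.48 in OF6, the 3 lowest of the 21 samples. That of 6 fibroblast markers was 0.94 in YF3 and 0.88 in OF3, and that of 7 macrophage markers was 0.38 in YF3, 1.33 in OF3 and 0.91 in OF6. OF6 also had medians of 1.43 for T cell and 2.50 for B and plasma cell markers, and YF3 had 0.90 for endothelial markers. In macrophage markers YF2 (0.49) and OM3 (0.39) also lay above YF3. In endothelial markers OM4 did, at 1.47, with a median deviation of -0.10 in the mitosis genes. Of the marker lists, 5 of 6 fibroblast, 5 of 8 endothelial and 4 of 7 macrophage markers were above the background limit of 8.64 on average, and 0 of 8 T cell and 0 of 7 B and plasma cell markers were. Their part in the levels of the mitosis genes was not tested.

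Other genes of the cycle were counted in the same way, with 1 probe set a gene. The counts stand beside 49.8% of all genes with the lower mean in old males and 50.3% in old females. Of 38 replication genes outside the list (origin recognition, loading, polymerases and clamp loaders), 18 had the lower mean in old males and 25 in old females, with medians of 0.01 and -0.09. CHAF1B, a histone chaperone of replication, had the smallest p of these in males, with a change of -1.10 ± 0.38 (unadjusted p = 0.00846). In females it was TK1, thymidine kinase, with -0.97 ± 0.42 (unadjusted p = 0.0300), and LIG1, the ligase that joins Okazaki fragments, was higher in both sexes, by 0.61 ± 0.32 and 0.75 ± 0.34. None of them passed the threshold, with adjusted p of at least 0.939 by limma.

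Of 39 mitosis genes outside the list, 30 had the lower mean in old males and 14 in old females, with medians of -0.23 and 0.13 and a median difference of the effects of -0.32. CKS2, a small CDK-binding protein, had 5.92 to 6.92 in old males, against 7.29 to 8.60 in young males. These did not overlap, as in 0.309% of all genes, and the CKS2 change was -1.28 ± 0.46 (unadjusted p = 0.0107). KIF4A, a chromosome kinesin, had a change of -1.16 ± 0.46 in males (unadjusted p = 0.0197). In females CENPN, a kinetochore protein, had 4.72 to 5.99 in old, against 6.18 to 6.71 in young animals, with a change of -1.25 ± 0.42 (unadjusted p = 0.00702). Old females lay wholly below young females in 0.184% of all genes. These too had adjusted p over 0.94 by limma, and 0 of the 39 passed the threshold in either sex.

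Inhibitors of CDKs act against entry into the cycle. Of 6 such genes measured, 5 had the higher mean in old males and 4 in old females, with medians of 0.43 and 0.26. Among all genes 50.2% had the higher mean in old males and 49.7% in old females. CDKN2A, which encodes p16 and ARF, had 8.38, 8.55 and 9.38 in old males (lowest, median, highest), against 7.70, 8.09, 8.21, 8.10 and 8.09 in young males. Every old male was above every young male, as in 0.301% of all genes, and the lowest young male, at 7.70, was YM1. The change was 0.72 ± 0.23 (unadjusted p = 0.00562, adjusted p 0.9999 by limma). In females the groups overlapped, with a change of 0.38 ± 0.24. CDKN1A, which encodes p21, had changes of 0.59 ± 0.31 in males and 0.27 ± 0.33 in females. Of 20 cyclin D and E, CDK, E2F and RB genes, 14 had the lower mean in old males and 9 in old females, with medians of -0.09 and 0.09.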

How the data were processed

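The authors deposited linear intensities, 1 per probe set, for 22277 probe sets on 24 single-colour arrays. The sources used here do not say how probes were summarised or arrays scaled. Per the labels' protocols, total RNA was reverse-transcribed and labelled with biotin. The precision is limited by the number of arrays.

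The members and the other gene lists were chosen with earlier results of these data known. Groups and numbers came from the sample titles. After 62 control probe sets had been left out, log2(intensity + 16) was quantile normalised. All 276 pairs of arrays were compared, and the 3 pairs whose deviations correlated over 0.7 (at least 0.792, against at most 0.571 in the others) were averaged. Probe sets with a mean at or above the median of all means (7.59) were tested, 11108 in all. A mean per group was fitted to 21 samples with limma 3.58.1 in R 4.3.3 (empirical Bayes with an intensity trend), and gave 4 contrasts: OM over YM, OF over YF, their average and their difference. P-values were Benjamini-Hochberg adjusted over all probe sets tested. Probe sets below the filter took their values from the same fit over all 22215 probe sets. The code was tested on simulated data. The platform annotation gave 1 symbol for 19064 probe sets, several for 1043, which stay unnamed, and none here for 2108.

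All 39 genes are accounted for. Values by sample are given for MKI67, TOP2A, MCM2 to MCM7, PCNA, CCNB1, CDK1 and the up to 5 members with the smallest p in each contrast. Beyond that rule, KIF20A, NUSAP1, ASPM and PRC1 were chosen after their values were seen. Alternatives were 24 arrays, median centring, values as deposited, pseudocounts of 1 and 64, no filter, array weights, the replicate number as a block, the actin ratio as a covariate, and leaving out the divergent samples or each sample in turn.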

Additional observations from a re-analysis of the deposited data

Results flagged for a closer look

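For each of the 39 genes, the highest and the lowest sample of each of the 4 groups was set against the nearest other sample by Dixon's criterion. Of the 156 groups of 5 or 6 samples tested in this way, 15 held a sample that stood apart from the rest of its group. The nominal rate of the criterion is about 1 in 20, but all genes were read in the same samples, so the groups are not independent. The share over all genes was not counted, and whether the count is particular to these genes was not tested. In old males, OM2 was far below the others for CCNB2 (5.39), BUB1 (4.75) and PTTG1 (6.12), and OM4 was far below for CDC20 (5.18). The 4 other BUB1 probe sets did not agree on OM2. It had 6.15, 7.46, 5.43 and 4.18 there, beside old male means of 6.30, 5.44, 5.06 and 4.73, and 7.46 was the highest of all samples. In young males, YM5 was low for CDK1 (7.06) and YM1 for TPX2 (5.75). In old females, OF5 was low for MCM7 (7.62), OF2 was high for CDKN3 (8.58) and low for PTTG1 (8.52), and OF3 was high for KIF20A (7.91) and low for MKI67 (6.56). The other MKI67 probe sets did not agree on OF3. It had 8.43 at 1 of them, above the old female mean of 7.32, and lay below the old female mean at the rest. In young females, YF3 was high for CCNE2 (7.51) and NUSAP1 (8.61), YF2 was low for CENPF (5.34) and YF5 for CDC20 (6.85). Of these 15 values, 9 belong to OM2, OM4, YM1, OF2 and YF3, which are among the samples whose arrays stood apart over all probe sets.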

How the results depend on the processing

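No probe set of the 39 genes passed the threshold in any setting with the filter, nor did any of the 40 named changes in any setting at all, and 30 of them kept their sign in every setting. With no filter 0 probe sets of any gene were past the threshold in males, with median-centred arrays 0, with a pseudocount of 64 0, with the actin ratio as a covariate 1 and with array weights 25, against 2 as reported; in both sexes averaged there was 1 with the replicate block and 1 without the divergent samples, against 0. Probe sets of the 39 genes at an unadjusted p under 0.05 numbered, in males, 5 with no filter, 3 with 24 arrays, 0 with values as deposited and 2 with the actin ratio; in females, 1 with the actin ratio; in both averaged, 2 with no filter, 3 with 24 arrays, 1 with the replicate block and 1 with the actin ratio; and in the difference of the effects, 3 with no filter, 1 with array weights, 1 without the divergent samples and 1 with the actin ratio.

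With 1 sample left out at a time, these counts ran over 0 to 2 in males, 0 to 1 in females, 0 to 2 in both averaged and 0 to 2 in the difference, and the count of all probe sets past the threshold in males over 0 to 2. Genes with a lower mean in old females numbered 13 with values as deposited and 8 without the divergent samples, and 13 to 26 with 1 sample left out. YF3 was highest in 7 genes and OF3 in 10 with median-centred arrays (3.79% and 15.3% of all genes), and OF3 in 1 with values as deposited (5.09%). Members above background numbered 9 and 14 under the other limits. The cause of these shifts was not tested.

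These signs turned. In males MKI67 was at 0.0064 with median-centred arrays, 0.047 with values as deposited, 0.16 with array weights, 0.0045 with the replicate block, 0.11 without the divergent samples and 0.031 with the actin ratio. MCM2 was at -0.12 with array weights, -0.056 with the replicate block and -0.18 without the divergent samples. MCM3 was at -0.019 with a pseudocount of 1 and -0.15 with the actin ratio, and MCM4 at 0.017 with 24 arrays, 0.020 with values as deposited, 0.00030 with array weights and 0.046 without the divergent samples. In females MCM3, at -0.36 as reported, was at 0.11 without the divergent samples. MCM4 was at 0.0048 with 24 arrays, 0.046 with values as deposited, 0.20 without the divergent samples and 0.031 with the actin ratio. MCM5 was at 0.026 with values as deposited, 0.020 with a pseudocount of 64, 0.069 without the divergent samples and 0.23 with the actin ratio. PCNA was at 0.061 with values as deposited, 0.27 without the divergent samples and 0.054 with the actin ratio, and CDK1 at -0.17 with 24 arrays and -0.032 with the actin ratio.

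With 1 sample left out, the male changes ran over -0.056 to 0.26 (MCM2), -0.17 to 0.35 (MCM3), -0.13 to 0.10 (MCM4) and -0.19 to 0.13 (MKI67), and the female changes over -0.031 to 0.19 (MCM2), -0.56 to 0.0084 (MCM3), -0.17 to 0.21 (MCM4), -0.51 to 0.32 (MCM5), -0.32 to 0.24 (PCNA) and -0.27 to 0.60 (CDK1). The shared numbers did not pair old with young samples: deviations of same-numbered samples correlated at -0.43, -0.35, 0.01, 0.21 and 0.26 in males and 0.51, 0.02, 0.07, 0.17 and -0.01 in females, so the block shares only a number. Dim probe sets limit what these arrays can show, since 26 of the 39 genes lie below the filter.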
